A study of Mus musculus with 8 samples.

Results

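The 10 genes described here, of T lymphocytes and natural killer (NK) cells, were followed across 8 Affymetrix mouse arrays of GFP-positive cells sorted from kidneys. The genes were named beforehand by symbol, with results of these arrays known: the CD3 chains Cd3d, Cd3e, Cd3g and Cd247, the kinase Lck, the adhesion receptor Cd2, the coreceptors Cd4 and Cd8a, the granule gene Nkg7 and the cytokine receptor Il2rb. Of the 10 genes, 9 had a probe set with a single gene symbol, among 18193 such genes on the array, and Lck is not analysed here. A gene with several probe sets was represented by the one with the highest mean over the 8 arrays, so that mean is a consequence of the choice and was not tested. The ischemic group held 5 left kidneys of male FSP1-eGFP mice on a C57BL/6 background, 6 months old, taken 3 days after surgery in which clamps closed the renal vessels for 45 minutes, with buprenorphine given for pain. The normal group held 3 non-ischemic kidneys of the same strain, sex and age, described in the labels both as sham and as normal. In all 8 samples the cells, which the study calls fibroblasts, were chosen by GFP under the FSP1 (S100a4) promoter, which marks fibroblasts but is also active in some leukocytes. The labels speak of 5 operated mice and do not say whether the normal kidneys came from separate mice, so the tests measure the spread between these samples, and their small number limits the precision.

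T cells recognise antigen with a receptor whose variable chains are carried to the surface by the CD3 dimers and the zeta chain. Signalling starts when the kinase Lck, held near the receptor by the CD4 or CD8 coreceptor, phosphorylates the tails of the CD3 and zeta chains. NK cells lack a rearranged receptor, kill with perforin and granzymes, and share Il2rb, Nkg7, Cd2 and the zeta chain with T cells. In the kidney after ischemia, T and NK cells are among the leukocytes that enter the tissue and have been linked to early injury and to later repair.

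All values below are log2(intensity + 16) after quantile normalization, where 4.09 is the bottom of the scale. Across 112 genes of smell, taste and skin that kidney cells are not known to use, the 90th percentile per array lay between 4.84 and 5.34 in 7 arrays and at 7.05 in ischemic 1. This percentile is a rough guide to a dim signal, since probe sets differ in background. Across genes, the correlation of ischemic 1 with each other array had a median of 0.753, against 0.850 to 0.913 for the rest. Although every sample is labelled male, Xist, the RNA of the inactive X chromosome, measured 11.21 in ischemic 1, 9.39 in ischemic 2 and 11.01 in normal 1, against 4.49 to 4.96 in the other 5 arrays. The Y-linked gene Eif2s3y was lowest in ischemic 1 (5.84) and normal 1 (5.84), whereas ischemic 2 (7.78) lay within the range of the low-Xist arrays (7.68 to 8.87). Ischemic 1 and normal 1 thus went against their labelled sex in both signals, and ischemic 2 carried both signals at once. The comparisons between groups are given with and without these arrays.

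The CD3 chains varied widely among arrays of the same group, and 3 of them were highest in ischemic 1, ischemic 2 and normal 1. Cd3e, which pairs with either CD3 delta or CD3 gamma, measured 9.65, 8.06, 6.32, 7.80 and 4.81 in ischemic arrays 1 to 5, against 8.84, 7.12 and 5.53 in normal arrays 1 to 3. Its range of 4.85 over the 8 arrays spanned both groups, with the lowest value in ischemic 5 and the highest in ischemic 1. Cd3g, the gamma chain, measured 8.53, 7.73, 5.39, 6.92 and 4.62 in ischemic arrays, against 7.96, 4.21 and 4.70 in normal arrays. Among low-Xist arrays Cd3g passed the 90th percentile of the sensory and skin genes in ischemic 4 and ischemic 3, and it lay below that level in ischemic 5, normal 2 and normal 3. Cd3d, the delta chain, measured 7.64, 5.41, 4.76, 4.61 and 4.80 in ischemic arrays, against 5.81, 4.70 and 4.79 in normal arrays. It passed the same level in 3 of 8 arrays, the 3 with high Xist, where ischemic 1 has the raised level of 7.05. In sorted bulk RNA, fewer T cells and less of each transcript per cell cannot be told apart.

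**Figure D1:**
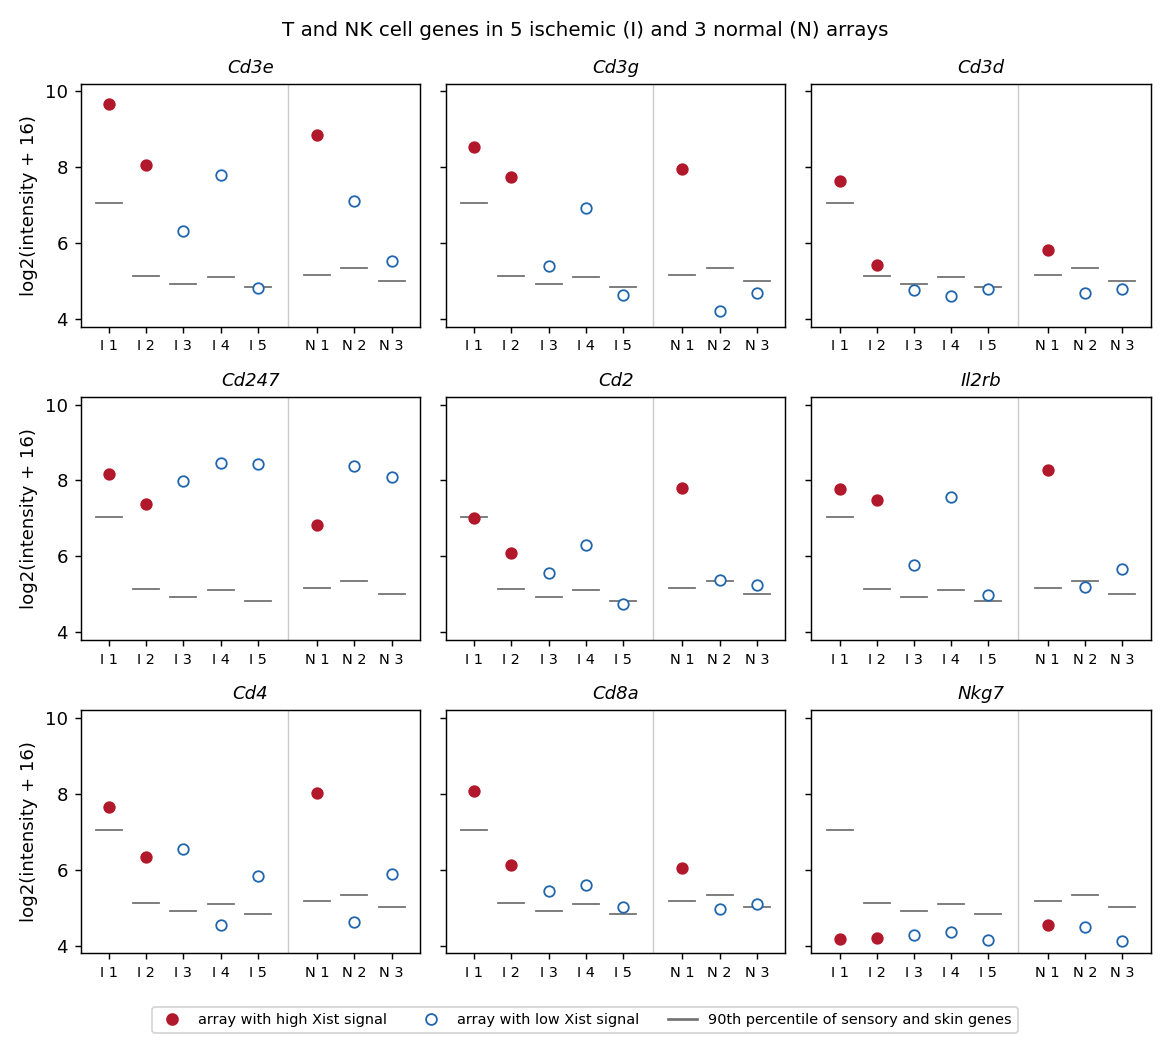
Each panel plots 1 gene, with log2(intensity + 16) on the vertical axis and the ischemic arrays (I 1 to I 5) left of the normal arrays (N 1 to N 3). Points are single arrays, filled where Xist was high, and short bars are each array's 90th percentile of 112 sensory and skin genes. Cd3e, Cd3g, Cd3d and Cd8a have their 3 highest values in the 3 filled arrays, Cd247 does not, and Nkg7 lies under the bar in every array.

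Cd3d, Cd3e and Cd3g are neighbours on mouse chromosome 9, and their start regions are shown because the 3 genes had the same arrays at the top. The sequences run from 250 bases before to 50 bases after the transcript start in RefSeq (GRCm38.p6), on each gene's own strand. Capitals mark the letters AGGAAG, bound by ETS family factors, and CACCTG, bound by E proteins, on either strand. No match overlaps another.
Cd3d, chr9:44981536-44981835, + strand: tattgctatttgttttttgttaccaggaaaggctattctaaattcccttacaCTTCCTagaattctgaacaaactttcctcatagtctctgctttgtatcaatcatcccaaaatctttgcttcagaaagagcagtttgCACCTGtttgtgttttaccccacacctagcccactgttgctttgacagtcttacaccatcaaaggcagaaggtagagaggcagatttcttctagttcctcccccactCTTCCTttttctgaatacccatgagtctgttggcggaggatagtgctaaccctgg
Cd3g, chr9:44980382-44980681, − strand: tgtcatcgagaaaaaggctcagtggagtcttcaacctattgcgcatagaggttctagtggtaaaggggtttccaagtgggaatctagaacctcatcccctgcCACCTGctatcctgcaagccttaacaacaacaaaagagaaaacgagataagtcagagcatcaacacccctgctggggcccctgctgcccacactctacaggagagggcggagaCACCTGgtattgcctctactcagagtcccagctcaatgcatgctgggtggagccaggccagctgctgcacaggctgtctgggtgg
Cd3e, chr9:45009562-45009861, − strand: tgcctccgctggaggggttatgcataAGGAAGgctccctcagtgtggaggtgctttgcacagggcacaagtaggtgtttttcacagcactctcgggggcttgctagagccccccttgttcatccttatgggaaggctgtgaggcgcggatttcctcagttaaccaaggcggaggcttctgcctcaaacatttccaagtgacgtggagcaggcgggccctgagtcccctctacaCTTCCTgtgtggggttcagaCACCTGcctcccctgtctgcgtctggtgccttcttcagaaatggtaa
The Cd3g and Cd3d windows face away from each other with 854 bases between them. The AGGAAG motif matched at 2 places in Cd3d and 2 in Cd3e and at 0 in Cd3g, and 35.4% of the 32851 mouse start regions in the table hold it. The CACCTG motif matched at 1 place in Cd3d, 1 in Cd3e and 2 in Cd3g, against 20.2% of all start regions with a match. The motif TGTGGT of RUNX factors, searched on both strands too, was found in none of the 3 windows and in 16.8% of all start regions. Such matches describe the letters only.

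Cd247, which encodes the zeta chain, gave different pictures by probe set. The brightest of its 4 probe sets, which represents the gene here, measured 8.18, 7.39, 7.97, 8.45 and 8.43 in ischemic arrays, against 6.82, 8.37 and 8.10 in normal arrays. Normal 1, with the second highest Cd3e, had the lowest value of this probe set. A dimmer probe set, 1426396_at, measured 7.14, 7.90, 4.99, 4.75 and 4.74 in ischemic arrays, against 7.17, 5.16 and 5.18 in normal arrays. Its 3 high-Xist arrays lay above all 5 others, as for Cd3d, Cd3e and Cd3g. The probe set 1420716_at was highest in ischemic 4 (7.08) and ranged from 5.46 to 6.21 elsewhere, and 1452539_a_at ranged from 4.10 to 5.67 with its lowest values in ischemic 1 and normal 1. In RefSeq, Cd247 on the plus strand and Pou2f1 on the minus strand, the gene of the widely expressed factor Oct-1, overlap at their ends by 6004 bases. Which of the probe sets fall in that overlap was not tested, and the ischemic minus normal difference was between 0.024 and 0.32 for all 4.

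**Figure D2:**
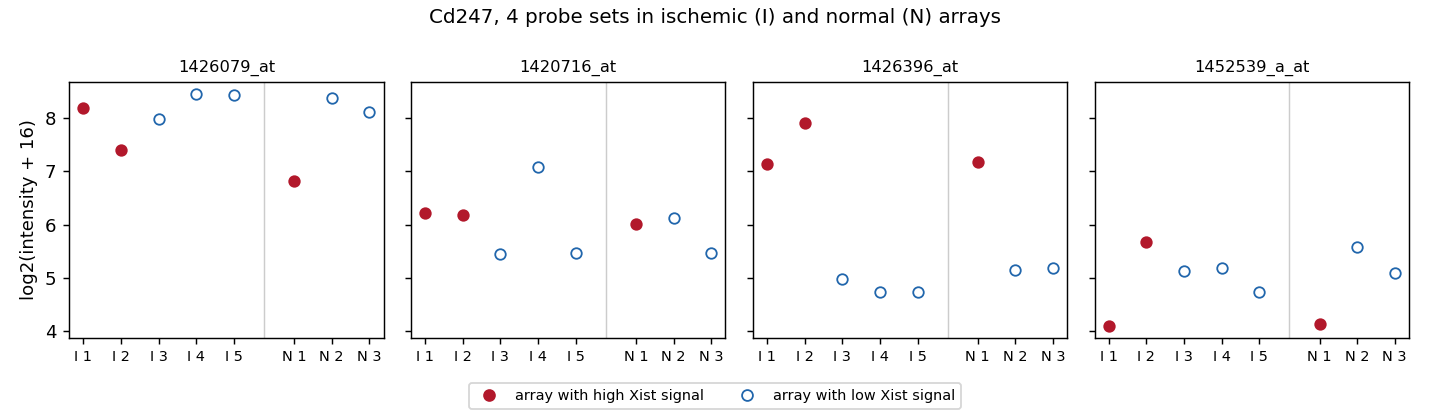
Each panel plots 1 of the 4 Cd247 probe sets, from the brightest on the left to the dimmest on the right, as log2(intensity + 16) in ischemic (I) and normal (N) arrays. Filled points are the high-Xist arrays, which stand apart at 7.14 to 7.90 for 1426396_at and do not for the other 3 probe sets.

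Cd2 and Il2rb, which T and NK cells share, followed the CD3 chains in most arrays. Cd2, an adhesion receptor that in mice binds CD48, measured 7.01, 6.09, 5.56, 6.30 and 4.75 in ischemic arrays, against 7.79, 5.37 and 5.24 in normal arrays. Normal 1 was highest and ischemic 5 lowest, and the value of ischemic 1 lay just under that array's 90th percentile of sensory and skin genes. Il2rb, the beta chain of the receptors for interleukin 2 and interleukin 15, measured 7.77, 7.49, 5.77, 7.56 and 4.99 in ischemic arrays, against 8.27, 5.19 and 5.67 in normal arrays. Ischemic 4 lay above ischemic 2 for both genes, and for Cd3e it came next after the 3 high-Xist arrays. The second probe set of Il2rb was dimmer, at 7.29, 4.94, 5.13, 4.62 and 4.19 in ischemic arrays, against 5.76, 5.30 and 4.14 in normal arrays, and did not repeat the high values of ischemic 2 and ischemic 4.

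The 2 coreceptors had different orders of arrays. Cd4, the coreceptor of helper T cells, which mouse macrophages and dendritic cells can also carry, measured 7.66, 6.34, 6.54, 4.54 and 5.83 in ischemic arrays, against 8.03, 4.63 and 5.88 in normal arrays. It was lowest in ischemic 4, where Cd3e, Cd2 and the brighter Il2rb probe set passed the 90th percentile of sensory and skin genes (5.11). The dimmer Il2rb probe set (4.62) did not pass it there. Cd4 exceeded that percentile in ischemic 5, where Cd3e, Cd3g, Cd3d and Cd2 did not. The second, dimmer Cd4 probe set measured 6.28, 5.40, 4.73, 4.63 and 4.83 in ischemic arrays, against 5.05, 5.14 and 4.83 in normal arrays. This probe set was also lowest in ischemic 4, but it did not repeat the high normal 1 or exceed that percentile in ischemic 5. Cd8a, the alpha chain of the coreceptor of cytotoxic T cells, measured 8.07, 6.12, 5.43, 5.59 and 5.02 in ischemic arrays, against 6.05, 4.96 and 5.10 in normal arrays. Ischemic 1 was far above the others, and the 3 high-Xist arrays again held the 3 highest values. Of the other 4 Cd8a probe sets, 1444078_at ranged from 4.65 to 6.83 with its peak in ischemic 1, and 3 stayed between 4.09 and 5.08. None of these 4 had all 3 high-Xist arrays on top. In 1444078_at, ischemic 4 (5.74) lay above ischemic 2 (5.61) and normal 1 (5.50).

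Nkg7, a membrane protein of the cytotoxic granules of NK cells and CD8 T cells, was close to the bottom of the scale everywhere. It measured 4.16, 4.19, 4.27, 4.36 and 4.15 in ischemic arrays, against 4.55, 4.50 and 4.12 in normal arrays. The value lay below the 90th percentile of the sensory and skin genes in all 8 arrays, so no difference in Nkg7 was detectable at this signal. Ncr1, the NK cell receptor NKp46, was equally dim, from 4.13 to 4.28 in ischemic and from 4.16 to 4.33 in normal arrays. It was the dimmest of 28 measured genes of an NK and cytotoxic list described below, 9 of which reached the median level of all genes. Prf1, which encodes perforin, lay between 6.86 and 8.41 in ischemic and between 8.10 and 8.61 in normal arrays.

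Between the groups, none of the 9 genes passed the test and every gene's ischemic and normal arrays overlapped. In limma's fit over all 18193 genes, 0 genes passed an adjusted p of 0.05 (0% of those tested), and 7.13% had an unadjusted p under 0.05, against 0 of the 9 genes. Groups that did not overlap made up 5.33% of all genes (1.89% higher and 3.44% lower in ischemic arrays), again against 0 of the 9. The largest difference was that of Cd3g, which averaged 6.64 ± 1.62 in the 5 ischemic arrays and 5.62 ± 2.04 in the 3 normal arrays (mean ± SD). It amounted to 1.02 ± 1.10 (SE; limma adjusted p = 0.954; two-sided exact permutation p = 0.446 over all 56 splits, where the smallest possible is 0.0179). Cd8a averaged 6.04 ± 1.20 in ischemic arrays and 5.37 ± 0.59 in normal arrays (SD, n = 5 and 3), a difference of 0.67 ± 0.66 (SE; limma adjusted p = 0.951). Cd3e averaged 7.33 ± 1.84 in ischemic arrays and 7.16 ± 1.66 in normal arrays (SD, n = 5 and 3), a difference of 0.17 ± 1.11 (SE; limma adjusted p = 0.989), whose SE was larger than the difference.

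Of the remaining genes, 4 had positive differences, with 0.35 ± 0.69 (SE) for Cd3d, 0.34 ± 0.88 for Il2rb, 0.32 ± 0.40 for Cd247 and 0.0017 ± 0.85 for Cd4. Cd2 differed by −0.19 ± 0.68 (SE) and Nkg7 by −0.16 ± 0.20. Over the 9 genes the limma adjusted p lay between 0.951 and 1 and the exact permutation p between 0.232 and 0.982. Their median difference was 0.32, against 0.041 over all genes, and it was −0.14 without ischemic 1, −0.012 without normal 3 and 0.93 without normal 1. The sign often rested on 1 array. Cd3e was at −0.42 without ischemic 1, −0.017 without ischemic 2 and −0.65 without normal 3, and Cd3d was at −0.20 without ischemic 1. Without normal 1, Cd2 was at 0.64 and Cd247 at −0.15, and without ischemic 5 Cd2 was at 0.11. Il2rb was at −0.25 without normal 2 and −0.012 without normal 3. Cd4, whose difference is close to 0, fell on the negative side without ischemic 1 (−0.37), ischemic 2 (−0.037), ischemic 3 (−0.088), normal 2 (−0.77) or normal 3 (−0.15). Cd3g and Cd8a stayed positive and Nkg7, near the bottom of the scale, negative with any array left out. For Cd8a this describes its brightest probe set. Over all 8 arrays its other probe sets differed by 0.78 (1444078_at), 0.24 (1440164_x_at), −0.017 (1451673_at) and −0.14 (1440811_x_at).

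The comparison was repeated among arrays of like Xist signal, where the few arrays leave little room for a call and the values are given as a description. Among the 5 low-Xist arrays, 3 ischemic and 2 normal, the difference was 1.19 ± 0.69 (SE) for Cd3g, 0.68 ± 0.77 for Il2rb, 0.38 ± 0.69 for Cd4 and 0.31 ± 0.26 for Cd8a. It was −0.014 ± 0.96 (SE) for Cd3e, −0.019 ± 0.21 for Cd3d, 0.047 ± 0.26 for Cd247, 0.23 ± 0.48 for Cd2 and −0.048 ± 0.23 for Nkg7. Among the 3 high-Xist arrays, with a single normal array, Cd3e differed by 0.015 and Cd3g by 0.17, while Cd8a was at 1.04, Cd247 at 0.96, Cd3d at 0.72, Nkg7 at −0.37, Il2rb at −0.64, Cd4 at −1.03 and Cd2 at −1.24. The median of the 9 genes was 0.23 among low-Xist arrays and 0.015 among high-Xist arrays. Without the 2 arrays that went against their labelled sex, the median was 0.42 and Cd3g differed by 1.72 ± 0.86 (SE; limma adjusted p = 0.859).

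**Figure D3:**
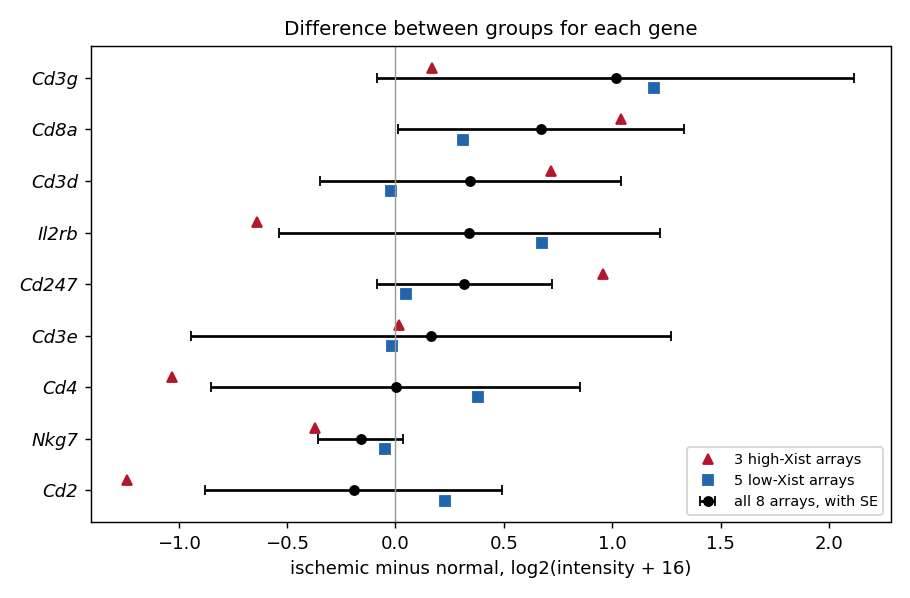
The horizontal axis is the ischemic minus normal difference on the log2(intensity + 16) scale, with 1 row per gene. Black points with bars are limma's values from all 8 arrays with SE, red triangles come from the 3 high-Xist arrays and blue squares from the 5 low-Xist arrays. The points of Cd3e lie near 0 in both sets, and those of Cd4, Il2rb and Cd2 lie on opposite sides of 0.

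The division by Xist separated more of these genes than the division by ischemia. For 4 of the 9 genes, Cd3d, Cd3e, Cd3g and Cd8a, all 3 high-Xist arrays lay above all 5 low-Xist arrays, which held for 4.85% of all genes, and for 0 of the 9 they lay below, against 5.04% of all genes. These 3 arrays are not a group of the study, and this count was made after the values were seen and has no test. Of the 5 Cd8a probe sets, only the brightest had this pattern. With Cd247 and the others taken as the mean of all their probe sets, the count was 6 of 9, against 4.2% of all genes. Without ischemic 2 it was 7 of 9 (10.1% of all genes), without ischemic 1 it was 4 of 9 (8.37%), and without both ischemic 1 and normal 1, which leaves ischemic 2 alone on the high side, it was 4 of 9 (22.2%). The part of sex, of a difference in sorting and of the amount of RNA in this pattern was not tested.

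Other genes of T cells also showed no call between the groups. Over all genes on the array, 9966 differences were positive and 8227 negative. Of the T cell identity list, 15 genes were measured, with 9 positive and 6 negative differences, 0 past the threshold over all genes and a median of 0.070. That median was −0.37 without ischemic 1, −0.022 without normal 2 and −0.078 without normal 3, and it ran up to 0.20 with other arrays left out. Bcl11b, a transcription factor that keeps T cells in their lineage, measured 9.48, 8.42, 6.54, 7.82 and 6.99 in ischemic arrays, against 8.22, 7.74 and 7.56 in normal arrays, a difference of 0.0088 ± 0.62 (SE). Il7r, the interleukin 7 receptor, differed by 0.070 ± 0.48 (SE), Foxp3, the factor of regulatory T cells, by 0.69 ± 0.41, and Cd8b1, the partner of Cd8a, by −0.67 ± 0.59. In this list 4 of 15 genes, Bcl11b, Cd27, Cd96 and Satb1, had all high-Xist arrays above the rest, against 4.85% of all genes. Cd96 lay below the 90th percentile of sensory and skin genes in ischemic 1 (4.82 against 7.05) and ischemic 2 (5.00 against 5.13). Tcra was dim, from 4.28 to 4.88 in ischemic and from 4.19 to 4.52 in normal arrays.

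Of the T cell receptor signalling list, 20 genes were measured, with 14 positive and 6 negative differences, 0 past the threshold and a median of 0.28, which was 0.042 without ischemic 1 and 0.20 to 0.40 with any other array left out. Vav1, an exchange factor used by many leukocytes, differed by 0.41 ± 0.35 (SE), and Plcg1, a phospholipase expressed in many cells, by −0.44 ± 0.45. Cd28, the costimulatory receptor, measured 8.44, 6.82, 6.25, 7.23 and 5.63 in ischemic arrays, against 6.79, 4.31 and 5.89 in normal arrays. At 1.21 ± 0.72 (SE; limma adjusted p = 0.857) its difference missed the threshold, and its arrays overlapped. Rasgrp1, which activates Ras below the receptor, differed by 1.10 ± 0.46 (SE; limma adjusted p = 0.669). It was the 1 gene of the 20 with an unadjusted limma p under 0.05, which 7.13% of all genes had. For 3 of the 20 genes, Lat, Ctla4 and Skap1, all high-Xist arrays lay above the rest, against 4.85% of all genes.

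Of the NK and cytotoxic list, 28 genes were measured, with 13 positive and 15 negative differences, 0 past the threshold and a median of −0.023, which ran from −0.19 without normal 2 to 0.11 without normal 1. Of these, 9 reached the median level of all genes. Prf1, which encodes perforin, differed by −0.58 ± 0.36 (SE) and Cd244a, the receptor 2B4, which myeloid cells also carry, by 0.12 ± 0.37. Klrg1, an inhibitory receptor of mature NK and T cells, measured 9.12, 8.42, 6.80, 7.58 and 7.19 in ischemic arrays, against 6.28, 6.23 and 7.67 in normal arrays, a difference of 1.09 ± 0.58 (SE; limma adjusted p = 0.810). Klrc1, an NKG2 receptor, differed by −0.68 ± 0.34 (SE). It passed the 90th percentile of sensory and skin genes only in normal 1 (5.69 against 5.17). The list's mean was 5.92, 5.67, 5.40, 5.42 and 5.23 in ischemic arrays, against 5.79, 5.32 and 5.33 in normal arrays. The high-Xist arrays were thus again on top, within a narrow range. The sensory and skin genes were raised in ischemic 1 too, with a median of 4.56 against 4.33 to 4.43 in the other arrays. Among the list's single genes, 3 of 28 had all high-Xist arrays above the rest, against 4.85% of all genes. They were Gzmb, a granzyme, Fasl, a death ligand, and Ccl5, a chemokine. In ischemic 1, Gzmb (4.92) and Fasl (6.41) lay below that array's 90th percentile of sensory and skin genes (7.05). Fasl lay below it in ischemic 2 too (4.85 against 5.13).

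Of the pathway that Il2rb belongs to, 10 genes were measured, with 4 positive and 6 negative differences, 0 past the threshold and a median of −0.27. That median was −0.027 without normal 2, −0.086 without ischemic 1 and −0.14 without normal 1, and it was −0.00033 without both arrays that went against their labelled sex. Cish, a feedback inhibitor that cytokines induce through STAT5, measured 5.40, 6.26, 6.32, 4.83 and 5.96 in ischemic arrays, against 7.48, 8.43 and 6.30 in normal arrays. At −1.65 ± 0.52 (SE; limma adjusted p = 0.412) its difference missed the threshold, and normal 3 lay within the ischemic range. The signalling genes Jak1 and Stat5a differed by 0.15 ± 0.33 (SE) and 0.040 ± 0.37, and Il2 by −0.66 ± 0.72. The ligands of T cell surface proteins, with 12 genes measured, had 10 positive differences, 0 past the threshold and a median of 0.33 (0.13 without ischemic 1). Cd48, the ligand of Cd2, differed by 0.57 ± 0.40 (SE), Cd40 by −0.066 ± 0.49 and Pvr by 0.47 ± 0.37.

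Markers of other cells were set beside these values. The B cell list had a mean per array of 8.80, 7.04, 5.49, 5.60 and 5.23 in ischemic arrays, against 6.51, 5.47 and 5.35 in normal arrays. The same 3 arrays were highest as for the CD3 chains. Of the 12 measured B cell genes, 8 had all high-Xist arrays above the rest, against 4.85% of all genes. For Cd79a, a chain of the B cell receptor, the high-Xist arrays measured 9.50, 7.49 and 7.12, against 4.51 to 5.00 in the others. The median difference of the B cell list, with 12 positive and 0 past the threshold, was 0.63 over all 8 arrays, 0.039 without ischemic 1, 1.02 without normal 1 and −0.021 in low-Xist arrays. In the pan-leukocyte list all 12 genes were brighter than the median gene, all 12 differences were positive with 0 past the threshold, and its means ranged from 9.81 to 10.69 in ischemic and from 9.38 to 9.98 in normal arrays. Its brightest genes, Laptm5 and Cd53, differed by 0.052 ± 0.21 (SE) and 0.12 ± 0.21, and those of lowest p, Coro1a and Ptpn6, by 0.90 ± 0.31 and 1.10 ± 0.34. Its order of arrays differed from that of the T cell genes, with normal 1 lowest. The macrophage list, all 15 of whose differences were positive with 0 past the threshold, ranged from 9.40 to 10.50 in ischemic and from 8.84 to 9.28 in normal arrays. For 5 of these 15 genes every ischemic array lay above every normal array, against 1.89% of all genes. By the mean of the macrophage list, ischemic 1 was the lowest ischemic array and normal 1 the lowest normal array. In these 2 arrays Cd3d, Cd3e and Cd3g were highest within their group.

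**Figure D4:**
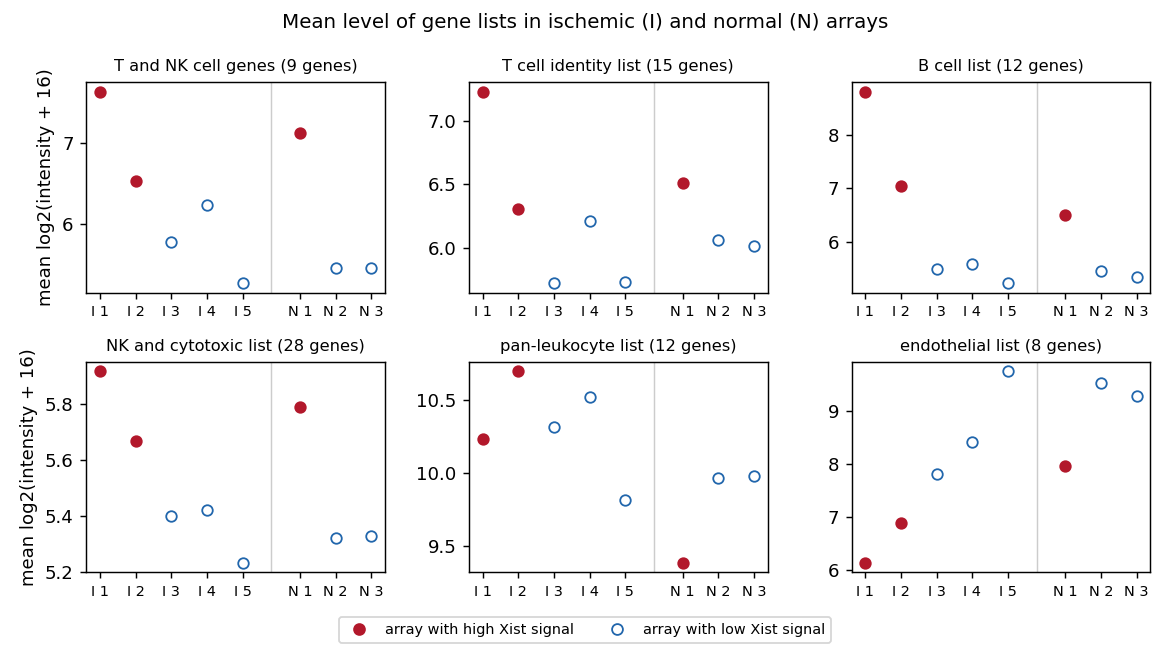
Each panel plots the mean log2(intensity + 16) of 1 gene list in the ischemic (I) and normal (N) arrays, with filled points for high Xist and a vertical scale of its own. The filled arrays are highest in the panels of the T and NK cell genes, the T cell identity, NK and cytotoxic and B cell lists, while in the endothelial panel ischemic 1 and ischemic 2 are lowest.

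The remaining marker lists moved in other ways. The endothelial list was lowest in ischemic 1 (6.14) and ischemic 2 (6.88), reached 9.74 in ischemic 5, and ranged from 7.96 to 9.52 in normal arrays. Ischemic 5 was thus the array with the highest endothelial and the lowest mean T and NK cell signal (5.27). The proximal tubule list ranged from 6.40 to 8.12 in ischemic and from 9.33 to 10.85 in normal arrays, with 0 genes past the threshold. For 8 of its 10 genes every ischemic array lay below every normal array, against 3.44% of all genes. The neutrophil list (means of 5.05 to 6.50 in ischemic and 5.27 to 6.02 in normal arrays) and the dendritic cell list (6.60 to 7.19 and 6.01 to 7.14) overlapped between the groups. The fibroblast list ranged from 5.42 to 6.91 in ischemic and from 5.11 to 6.28 in normal arrays, with 5 of its 10 genes brighter than the median gene. Lum, a fibroblast proteoglycan, lay between 4.18 and 4.79 in ischemic and between 4.36 and 4.57 in normal arrays. S100a4, the gene of the reporter's promoter, lay between 11.53 and 12.22 in ischemic and between 11.30 and 11.94 in normal arrays. Whether any of these cell types has a part in the T cell signal was not tested.

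The genes whose array profile lay closest to the mean profile of Cd3d, Cd3e, Cd3g, Cd2 and Cd247 were ranked by root mean square difference over the 8 arrays, among 9091 genes at or above the median level. The closest 6 were 4930448K20Rik (0.27), Trbv1 (0.27), Ccr6 (0.27), Nodal (0.27), 4930451G09Rik (0.29) and Pyurf (0.30). Trbv1, a variable segment of the T cell receptor beta chain, measured 7.89, 6.12, 5.71, 6.85 and 5.42 in ischemic arrays, against 7.41, 5.86 and 5.75 in normal arrays. Ccr6, a chemokine receptor of B cells and some helper T cells, measured 9.31, 8.11, 6.85, 7.47 and 6.03 in ischemic arrays, against 8.21, 6.67 and 7.06 in normal arrays. In all 6 genes, ischemic 5 was the lowest ischemic array and ischemic 1 the highest. The mean profile they were chosen to match has the same order, so this is a consequence of the choice. The chosen genes themselves lay farther from their mean profile, from 0.41 for Cd2 to 1.22 for Cd247, whose highest arrays were ischemic 4 and ischemic 5 and whose lowest was normal 1.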

How the data were processed

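GFP-positive kidney cells of 8 samples were measured on 1 array each, per the labels. The values the authors deposited are linear intensities per probe set, with medians of 24.2 to 33.4 per array. The sources used here do not name the software, background correction or scaling behind them. Of 45101 probe sets, 64 controls were left out, 34945 carried a single symbol in GEO's platform annotation, 932 carried several, and the other 9160 are unnamed here. Intensities were taken as log2(value + 16), which understates changes of dim genes, and quantile normalized. Groups came from the sample titles. The group difference was fitted by limma 3.58.1 (lmFit, eBayes) under R 4.3.3, adjusted by Benjamini-Hochberg over 18193 genes at a threshold of 0.05, and single genes by a two-sided exact permutation test. This fit was also tested on simulated data. Xist was called high above 8. Gene lists were described by counts and medians, with no set test. For each list the genes past the threshold were to be named, otherwise the 2 brightest and the 2 of lowest p. For the lists of B cells, macrophages, dendritic cells, neutrophils, proximal tubule, endothelium and fibroblasts this was not carried out, and list values are given instead. Further list genes (Tcra, Ncr1, Cd27, Cd96, Satb1, Lat, Ctla4, Skap1, Gzmb, Fasl, Ccl5, Cd79a, Lum, Col1a2) were named after their values were seen. The members and lists were chosen with earlier results of these data known. Alternatives were other scalings, pseudocounts of 1 and 64, filters at the 40th and 60th percentile, other probe set rules, limma's trend, robust and array weight options, thresholds of 0.01 and 0.1, the replicate number as a block, each array left out, and the Xist signal. Start regions and names came from RefSeq GRCm38.p6, with start regions for 7 of the 10 genes. Plots were made by matplotlib 3.10.9 (Python 3.11.15).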

Additional observations from a re-analysis of the deposited data

Results flagged for a closer look

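Among the 9 genes, the 5 ischemic arrays of Cd3d held 1 value far from the rest. Ischemic 1 measured 7.64 and the nearest array, ischemic 2, 5.41, a gap of 0.735 of the whole range, above the critical 0.71 of Dixon's test. Chance gives such a gap in about 1 of 20 groups, and 9 groups were looked at. Ischemic 1 was also the array in which the 90th percentile of sensory and skin genes was 7.05.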

How the results depend on the processing

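Over the alternatives, 208 differences of the 9 genes were recomputed, 179 kept their sign, and 0 passed limma's adjusted threshold (lowest adjusted p = 0.563). Cd3g, Cd8a and Nkg7 kept their sign throughout. With 1 array left out the differences ran from −0.64 to 0.64 for Cd2, from −0.15 to 0.62 for Cd247, from −0.20 to 0.70 for Cd3d, from −0.65 to 1.00 for Cd3e, from −0.77 to 0.93 for Cd4 and from −0.25 to 1.29 for Il2rb. With arrays centred on ribosomal protein genes, a scaling under which all genes had a median of −0.080 in place of 0.041, Cd3e was at −0.096 and Cd4 at −0.19. Cd4 was at −0.090 with arrays centred on the median and −0.069 with a pseudocount of 64, and Cd3e at −0.23 with array weights. With Xist as a covariate Cd3e was at −0.0039 and Cd4 at −0.12. Without the 2 arrays against their labelled sex Cd2 was at 0.37 and Cd247 at −0.18. Among low-Xist arrays, a setting added after seeing the data, Cd2 was at 0.23, Cd3d at −0.019 and Cd3e at −0.014, and among high-Xist arrays, added likewise, Cd4 was at −1.03 and Il2rb at −0.64. The median of the 9 genes ran from −0.14 to 0.93 with 1 array left out. Of the list medians, that of T cell identity was −0.13 with arrays centred on the median, −0.23 with ribosomal centring and −0.22 with array weights, that of T cell receptor signalling −0.058 with array weights, and that of the interleukin 2 and 15 pathway 0.040 above the 60th percentile and 0.27 among high-Xist arrays. The cause of these changes was not tested.

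Deviations from the group mean correlated at 0.160, −0.088 and 0.101 between same-numbered arrays. Between arrays of different number, among the first 3 of each group, they correlated at −0.203 to 0.175. These few values cannot tell whether the replicate numbers pair the arrays. With the replicate block, to which ischemic 4 and ischemic 5 add nothing since no normal array has their number, Cd2 was at 0.086, Cd3e at 0.85 ± 0.27 (SE), Cd8a at 1.17 ± 0.42 and the median of the 9 genes at 0.67. Cd3e (limma adjusted p = 0.563) and Cd8a (limma adjusted p = 0.620) were then below 0.05 before adjustment, as none of the 9 genes was without the block. With the block, 1406 of all 18193 genes were below 0.05 before adjustment, and 0 passed after it, as without the block. Among all genes 166 passed with arrays centred on ribosomal protein genes, 1 with a pseudocount of 1, 15 among genes above the 40th percentile, 2 with the mean of all probe sets, 31 with limma's trend, 5 with array weights, 1 with Xist as a covariate and 3 at a threshold of 0.1. With 1 array left out the count ran from 0 to 113 (the last without normal 3), and none of the 9 genes was among them under any of these settings. The count of genes with all high-Xist arrays on top was 4 of 9, 1 of the 3 left above the 60th percentile of level, where fewer genes were tested, and 4 to 7 with 1 array left out. Nkg7, and Cd3d outside the high-Xist arrays, gave too little signal over the dim genes to show a difference.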
